A study of Mus musculus with 6 samples.

Results

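The genes described here are 10 regulators of mitochondrial and fatty acid metabolism: Ppara, Ppard, Rxra, Esrra, Esrrb, Esrrg, Ppargc1a, Ppargc1b, Nrf1 and Tfam. They were chosen by name from the PPAR, ERR and PGC-1 pathway and are 10 of the 27179 genes in the bulk count table. Each was found both among its Entrez rows and among the Ensembl columns of the single-cell tables, and all 10 passed the filter on low counts in bulk. The study asked whether fibroblasts from adult mouse hearts push immature cardiomyocytes (imCMs) toward a more mature state. Neonatal C57BL/6 cardiomyocytes were grown for a few days on cardiac fibroblasts from neonatal (NF) or adult (AF) hearts of the same strain, and 2 bulk RNA-seq libraries were made from the cardiomyocytes of each co-culture, named imCM-NF and imCM-AF. No imCM library without fibroblasts was in the bulk comparison. Single cells were measured on 2 ICELL8 chips, a nanowell platform that counts unique molecular identifiers (UMIs) per well, 1 chip labelled cardiomyocytes and 1 labelled fibroblasts.

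Some features of the model bear on every value below. Fibroblasts were passaged before use to raise their purity, and more AFs than NFs were plated per cardiomyocyte because NFs divide, so fibroblast age and plating density cannot be told apart. The labels describe separation of cardiomyocytes from other cells by repeated slow centrifugation, whereas the study's methods describe a dye-based cell sort, and either can leave fibroblast RNA in a bulk library. The study states in general that its data came from independent experiments, but the number it gives does not match 2 libraries a group and the labels do not say whether replicates were separate cultures, so p-values measure the spread between these libraries, which may be technical. Well names on the chips (NFNCM, AFNCM and NCM0 on the cardiomyocyte chip; NF, AF, NF0 and AF0 on the fibroblast chip) are used as given, since the labels do not spell them out.

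PPARα and PPARδ are nuclear receptors that are switched on by fatty acids and bind DNA together with the retinoid X receptor RXRα. The estrogen-related receptors ERRα, ERRβ and ERRγ need no known hormone and act on many of the same metabolic genes. PGC-1α and PGC-1β bind no DNA themselves but dock onto these receptors as coactivators. NRF1 is a DNA-binding activator of nuclear genes for the respiratory chain, and TFAM is imported into mitochondria, where it packages and transcribes mitochondrial DNA. In the heart these factors are known for the switch after birth from glucose toward fatty acids as fuel.

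Promoter sequence is shown here for 2 members that behaved differently in bulk, the coactivator gene Ppargc1a and the receptor gene Rxra, because each holds the letters of a short motif that transcription factors of metabolic signaling are known to read. Sequences are from the RefSeq promoter table (GRCm38.p6), which gave 15 windows for 9 of the 10 members (all but Ppargc1b), and run 5′ to 3′ along the gene's strand over the 250 bases before an annotated start site. Capitals mark the core of a cAMP response element (TGACGT, here on the other strand, 50 to 45 bases before the start) in Ppargc1a, and the nuclear receptor hexamer AGGTCA (1 match on each strand) in Rxra. Both windows lie inside the annotated gene, upstream of one of several start sites, since longer transcripts begin farther out.
Ppargc1a, chr5:51567726-51567975, minus strand: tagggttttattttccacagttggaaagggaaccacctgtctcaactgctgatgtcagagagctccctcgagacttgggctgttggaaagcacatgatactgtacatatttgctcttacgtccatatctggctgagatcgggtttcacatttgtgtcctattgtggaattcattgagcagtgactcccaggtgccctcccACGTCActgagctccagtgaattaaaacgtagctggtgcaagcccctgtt
Rxra, chr2:27709042-27709291, plus strand: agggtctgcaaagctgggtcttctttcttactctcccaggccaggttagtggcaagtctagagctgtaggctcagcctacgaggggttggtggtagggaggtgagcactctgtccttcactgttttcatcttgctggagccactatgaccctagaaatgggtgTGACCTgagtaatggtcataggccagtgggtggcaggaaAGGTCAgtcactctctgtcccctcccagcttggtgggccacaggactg

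The core TGACGT was found in 6.47% of all 32851 windows of the table and AGGTCA in 14.0%, so neither is rare. The TGACGT core was added to the search after the Ppargc1a window had been read. AGGTCA was in 1 of the 15 member windows. The longer ERR motif TCAAGGTCA and the direct repeat of AGGTCA spaced by a single base, on which PPAR and RXR sit as a pair, were in 0 of the 15, against 0.387% and 0.0335% of all windows. The palindromic GC-rich motif bound by NRF1 (in 3.74% of windows) was found among members in the Ppara window, 31 to 22 bases before the start. The motif of the ETS factor GABPA (CCGGAAGT, in 2.88%) was found in the Tfam window, 47 to 40 bases before the start. The Ppara and Tfam windows also lie inside the annotated gene. Of their 250 bases, 83 in Ppara and 236 in Tfam fall in an annotated untranslated region. These sites are printed with 10 bases on each side and the motif in capitals.
Ppara, plus strand: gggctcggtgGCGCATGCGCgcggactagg
Tfam, minus strand: ctgccgcggaCCGGAAGTccgggcttcc

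GGGCGGGG, the motif of SP factors, was in 6 of the 15 member windows and in 16.1% of all windows. All motifs were searched on both strands, and AGGTCA is contained in the longer receptor motifs. A match of letters is a description and not a bound site.

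The bulk libraries held 9278909 to 12088577 counts, and 14041 genes were tested. Levels are CPM (counts per 1e6 counts) scaled by TMM factors, which lay between 0.968 and 1.02. A gene was called where its Benjamini-Hochberg adjusted p in edgeR's quasi-likelihood test was under 0.05 and its log2 fold change exceeded 0.58 (1.5-fold), the thresholds of the study. By this rule 11.1% of all genes were called, 6.15% higher and 4.99% lower in imCM-AF, and the median log2 fold change of all genes was 0.0011.

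Both PGC-1 coactivator genes rose in imCM-AF. Ppargc1a, which encodes PGC-1α (chr5:51454249-52115853, minus strand, GRCm38.p6), stood at 36 and 27.3 CPM in the imCM-NF libraries (cardiomyocytes grown with NFs) and at 52.8 and 62.2 CPM in the imCM-AF libraries (grown with AFs). Both imCM-AF libraries lay above both imCM-NF libraries. The fold was 1.83 (log2 fold change 0.87, SE 0.12, 95% interval 0.61 to 1.14, adjusted p = 8.56e-05), and 4.09% of all tested genes had a larger log2 fold change. Ppargc1b, which encodes PGC-1β, stood at 16.6 and 12.5 CPM with NFs and at 26.1 and 28.1 CPM with AFs, again without overlap. Its fold was 1.89 (log2 fold change 0.92, SE 0.14, adjusted p = 1.91e-04). Ppargc1b is the host gene of Mir378a, a microRNA whose own level was not measured here. Its 95% interval, 0.62 to 1.21, overlapped that of Ppargc1a over most of its length.

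Among the PPARs and their partner, only Ppara was called. Ppara, the PPAR best known for driving fatty acid oxidation (chr15:85734910-85806851, plus strand), stood at 11.9 and 9.66 CPM with NFs and at 15.1 and 17.2 CPM with AFs. The groups did not overlap, and the fold was 1.51 (log2 fold change 0.60, SE 0.16, adjusted p = 0.0110), close to the fold threshold. The call was lost without imCM-NF replicate 2 (log2 fold change 0.45, adjusted p = 0.144), without imCM-AF replicate 2 (0.50, adjusted p = 0.127) and in DESeq2 (adjusted p = 0.0675). Ppard, the more widely expressed PPAR, stood at 57.1 and 56.4 CPM with NFs and at 55.3 and 50.2 CPM with AFs. Its log2 fold change was -0.11 with an interval of -0.31 to 0.10 (adjusted p = 0.439). Rxra, the shared partner, stood at 65.0 and 72.6 CPM with NFs and at 75.7 and 64.4 CPM with AFs, with the groups interleaved. Its log2 fold change of 0.02 had an interval of -0.19 to 0.24 (adjusted p = 0.894), so that a change of 1.5-fold in either direction lay outside the interval for Ppard and for Rxra.

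Of the ERRs, Esrrg was called. Esrrg, whose product ERRγ is abundant in heart (chr1:187608510-188214885, plus strand), stood at 15.6 and 11.4 CPM with NFs and at 18.9 and 26.8 CPM with AFs. The groups did not overlap, but the imCM-AF libraries lay farther from each other (22.8 ± 5.59 CPM, SD, n = 2) than the imCM-NF libraries (13.5 ± 2.97 CPM, n = 2). The fold was 1.72 (log2 fold change 0.78, SE 0.18, adjusted p = 0.00356), and the call was lost without imCM-NF replicate 2 (0.56, adjusted p = 0.123) and without imCM-AF replicate 2 (0.51, adjusted p = 0.0785). Esrra, the most abundant ERR, stood at 112.8 and 93.1 CPM with NFs and at 131.1 and 124.2 CPM with AFs. Its log2 fold change of 0.31 (SE 0.10) had an adjusted p of 0.0339 but was below the fold threshold, so Esrra was not called. Exons of Esrra (chr19:6910977-6922048, minus strand) overlap those of Trmt112 on the opposite strand, and since the library kit does not mark strand, reads in the overlap cannot be assigned to either gene. Esrrb, the ERR best known from embryonic stem cells, was low at 5.35 and 4.46 CPM with NFs and at 5.93 and 5.54 CPM with AFs. Its log2 fold change of 0.24 had an interval of -0.23 to 0.70 (adjusted p = 0.450), wide enough to include a 1.5-fold rise.

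Nrf1 and Tfam did not pass the test. Nrf1 stood at 27.1 and 27.3 CPM with NFs and at 24.4 and 26.5 CPM with AFs (log2 fold change -0.09, interval -0.33 to 0.15, adjusted p = 0.579). Tfam stood at 35.4 and 39.2 CPM with NFs and at 40.8 and 38.8 CPM with AFs, with overlapping groups (log2 fold change 0.09, interval -0.13 to 0.31, adjusted p = 0.554). For both genes the interval left out a 1.5-fold change in either direction.

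**Figure D1:**
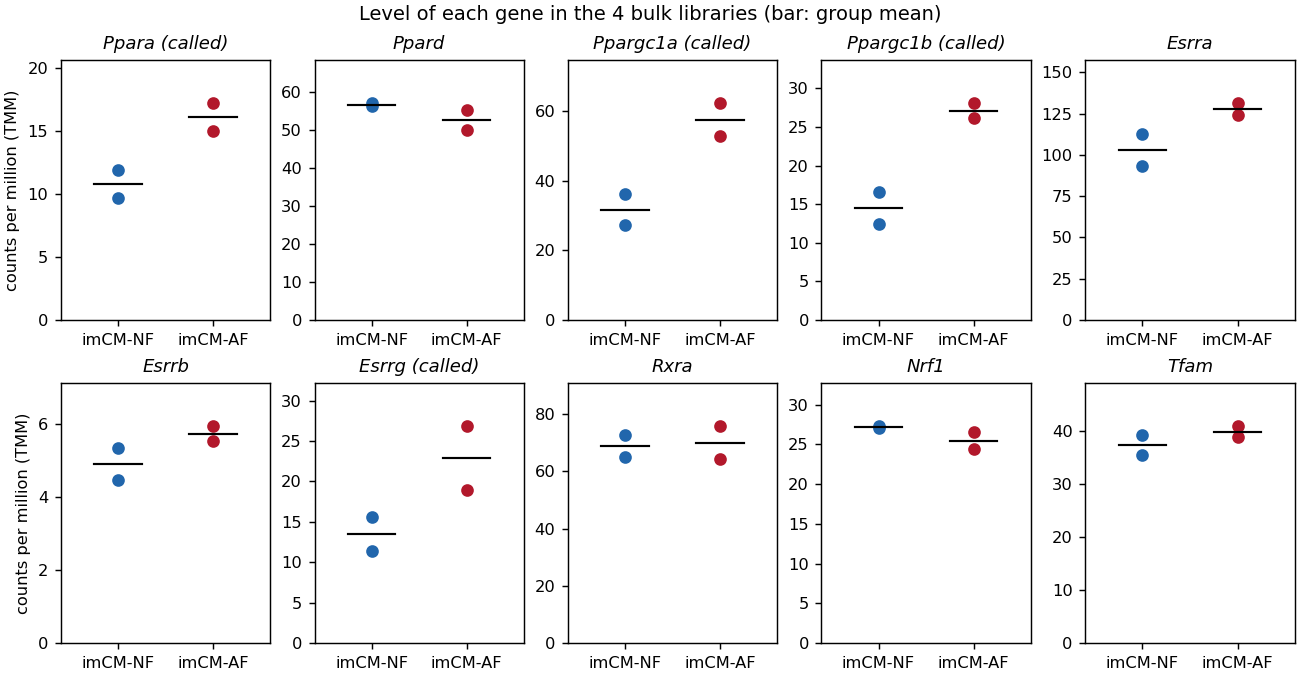
Level of each of the 10 genes in the 4 bulk libraries, in CPM on linear axes that start at 0, with 1 point per library and the mean of each group as a line. Ppargc1a, Ppargc1b, Ppara and Esrrg show both imCM-AF points above both imCM-NF points, whereas the points of Rxra and Tfam are interleaved.

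**Figure D2:**
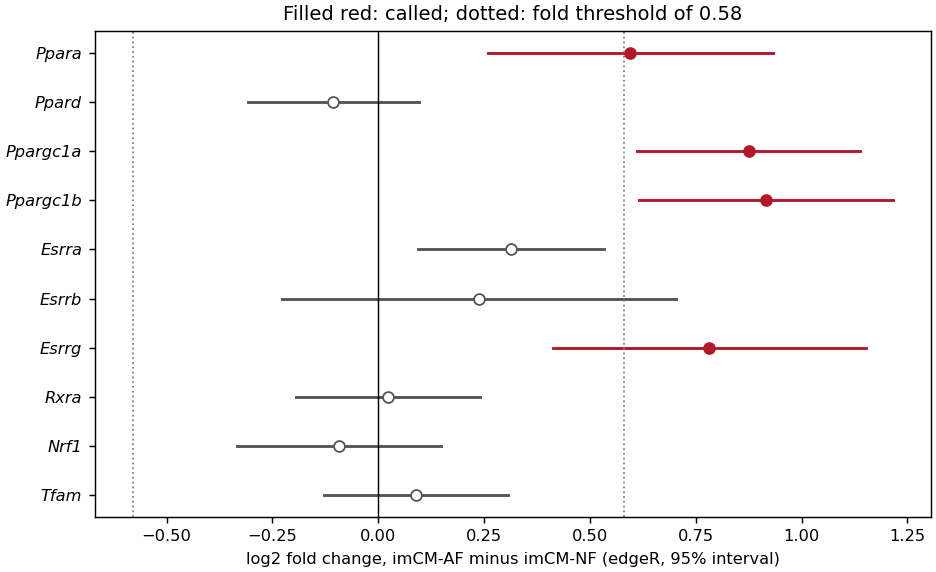
Log2 fold change of imCM-AF over imCM-NF for the 10 genes with 95% intervals, called genes filled in red and dotted lines at the fold threshold of 0.58. Ppargc1b (0.92), Ppargc1a (0.87), Esrrg (0.78) and Ppara (0.60) lie past the threshold, and the other 6 lie between -0.11 and 0.31.

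In all, 4 of the 10 members were called, all higher in imCM-AF, against 6.15% of all genes called higher. With the adjusted p alone, 5 of 10 passed, all higher, against 27.0% of all genes in either direction and 12.5% higher. The groups did not overlap for 8 members (6 higher, 2 lower), which is near the 66.0% of all genes without overlap and is therefore no result about the members. The median log2 fold change of the members was 0.28. The called members were both coactivators and the receptors Ppara and Esrrg. The receptors Ppard, Esrra and Esrrb, the shared partner Rxra, and Nrf1 and Tfam were not called.

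Bulk levels cannot tell apart fewer cells of a type from less RNA per cell, and markers of other cells differed between the groups. Of 10 fibroblast markers, 5 were called lower in imCM-AF, with summed levels of 15955 and 17509 CPM in imCM-NF and of 11139 and 8826 CPM in imCM-AF. Of 8 endothelial markers, 4 were called lower (943 and 978 CPM in imCM-NF, 639 and 605 CPM in imCM-AF). Of 10 cardiomyocyte markers, 2 were called higher, Ttn and Pln, and their sum was 37193 and 27241 CPM with NFs and 36231 and 39626 CPM with AFs, the low value being imCM-NF replicate 2. Of 7 macrophage markers tested, 2 were called lower (sums of 31.8 to 41.1 CPM over all 4 libraries), Cd163 was at 0 in each library and C1qa in imCM-AF replicate 1. Of 8 smooth muscle or mural markers, 3 were called lower and 1 higher (sums of 1954 to 2790 CPM), and of 4 epicardial markers tested, 1 was called lower (13.8 to 32.9 CPM). No cardiomyocyte, fibroblast or endothelial marker failed the filter on low counts. The part of these shifts in the members' changes was not tested. Without imCM-NF replicate 2, Ppargc1a (log2 fold change 0.68, adjusted p = 0.0110) and Ppargc1b (0.71, adjusted p = 0.0158) were still called, while Ppara, Esrrg and Esrra (0.19, adjusted p = 0.244) were not. In those 3 libraries the cardiomyocyte sums lay within 36231 to 39626 CPM, and the fibroblast and endothelial sums still differed as given above.

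Levels can be compared between genes only per length. As RPKM (CPM per kilobase of exon), averaged over the 4 libraries, Esrra was highest at 26.3, followed by Rxra at 12.7 and Tfam at 8.69. The ranges of these 3 over the 4 libraries overlapped neither each other nor that of the gene next below, Ppard. Ppard (7.28), Ppargc1a (6.76), Ppargc1b (5.22), Ppara (3.51), Esrrg (2.93) and Nrf1 (2.56) followed in a run in which each overlapped the next one over the 4 libraries. Esrrb came last at 0.880 RPKM and lay below the others in every library. Ppargc1a changed place with Ppard between the groups. Ppargc1a was at 5.46 and 4.14 RPKM in imCM-NF, under Ppard at 7.59 and 7.51 RPKM, and at 8.0 and 9.43 RPKM in imCM-AF, above Ppard at 7.36 and 6.67 RPKM and, in replicate 2, above Tfam at 8.75 RPKM.

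Genes that these factors work with, or are known to control, were read from the same fit in lists taken from the pathway. Of 20 partners, coactivators and corepressors, 4 were called higher (20%, against 6.15% of all genes) and none lower, with a median log2 fold change of 0.28. With the adjusted p alone 9 passed, all higher, against 12.5% of all genes higher. Rxrg, the RXR of striated muscle, was close to absent in imCM-NF at 0.334 and 0.165 CPM (3 and 2 counts) and reached 1.73 and 1.51 CPM in imCM-AF (19 and 18 counts, log2 fold change 2.71 with an interval of 1.58 to 3.84, adjusted p = 0.00140), a fold that rests on few counts. Rxrg passed the filter on low counts only through imCM-AF. Perm1, a muscle regulator induced by PGC-1 and ERR, stood at 61.0 and 47.0 CPM with NFs and at 89.9 and 95.4 CPM with AFs (fold 1.73, adjusted p = 8.49e-05). Lpin1, a phosphatidate phosphatase that also acts with PGC-1α and PPARα, stood at 81.3 and 62.5 CPM with NFs and at 126.4 and 118.2 CPM with AFs (fold 1.71, adjusted p = 1.04e-04). The fourth was Prkaa2, a catalytic subunit of AMP-activated kinase, named here after its values were seen (87.5 and 67.3 CPM against 108.3 and 127.3 CPM, fold 1.53, adjusted p = 0.00119). None of the 4 overlapped between groups, nor did 66.0% of all genes. The rule for naming genes required this of Rxrg, Perm1 and Lpin1.

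The fatty acid genes, textbook targets of the PPARs, moved most. Of 34 genes, 33 were tested, 19 were called higher (57.6%, against 6.15% of all genes) and none lower, and the median log2 fold change was 0.66. With the adjusted p alone 31 passed, all higher, against 12.5% of all genes higher. Of the 33, 32 were higher in both imCM-AF libraries than in both imCM-NF libraries, against 32.1% of all genes. Ucp3, a mitochondrial carrier induced by fatty acids, stood at 0.557 and 0.413 CPM with NFs and at 8.21 and 7.81 CPM with AFs (fold 16.5, adjusted p = 2.58e-07). It had 5 counts in each imCM-NF library, so it passed the filter on low counts only through imCM-AF. Plin5, which coats lipid droplets at mitochondria, stood at 4.01 and 2.40 CPM against 16.4 and 11.6 CPM (fold 4.48, adjusted p = 8.18e-06). Acot2, a mitochondrial thioesterase that cleaves fatty acyl-CoA, stood at 15.5 and 12.5 CPM against 43.3 and 41.6 CPM (fold 3.06, adjusted p = 1.57e-07). Each of these rose by more than any of the 10 regulators, but they were picked as the largest rises of their list.

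The citrate cycle and respiratory chain genes, known targets of ERR and PGC-1, were called about as often as all genes, though most leaned higher. Of 33 tested, 30 were higher in imCM-AF, and the median log2 fold change was 0.15. With the adjusted p alone 7 passed, all higher (21.2%, against 27.0% of all genes in either direction and 12.5% higher). Libraries did not overlap for 17, all higher, where 32.1% of all genes were higher without overlap. By the full rule 2 were called higher (6.06%, against 6.15% of all genes) and none lower. The count was 0 without imCM-NF replicate 2. The called genes were Ckmt2, the creatine kinase of muscle mitochondria (228.6 and 178.0 CPM against 321.3 and 340.2 CPM, fold 1.63, adjusted p = 4.12e-04), and Cox6a2, the muscle form of a cytochrome oxidase subunit (288.8 and 242.9 CPM against 400.6 and 394.3 CPM, fold 1.5, adjusted p = 0.00122). Of 15 genes for upkeep and transcription of mitochondrial DNA, 1 was called higher (6.67%, again near 6.15%) and none lower, and the median log2 fold change was 0.19. That gene was Polg2, the accessory subunit of the mitochondrial DNA polymerase, at 4.35 and 3.22 CPM with NFs and at 6.48 and 6.05 CPM with AFs (fold 1.68, adjusted p = 0.0255). The call of Polg2 was lost in DESeq2 and when imCM-NF replicate 2 or either imCM-AF library was left out. The lists were chosen with earlier results known, and no test compared one list with another.

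**Figure D3:**
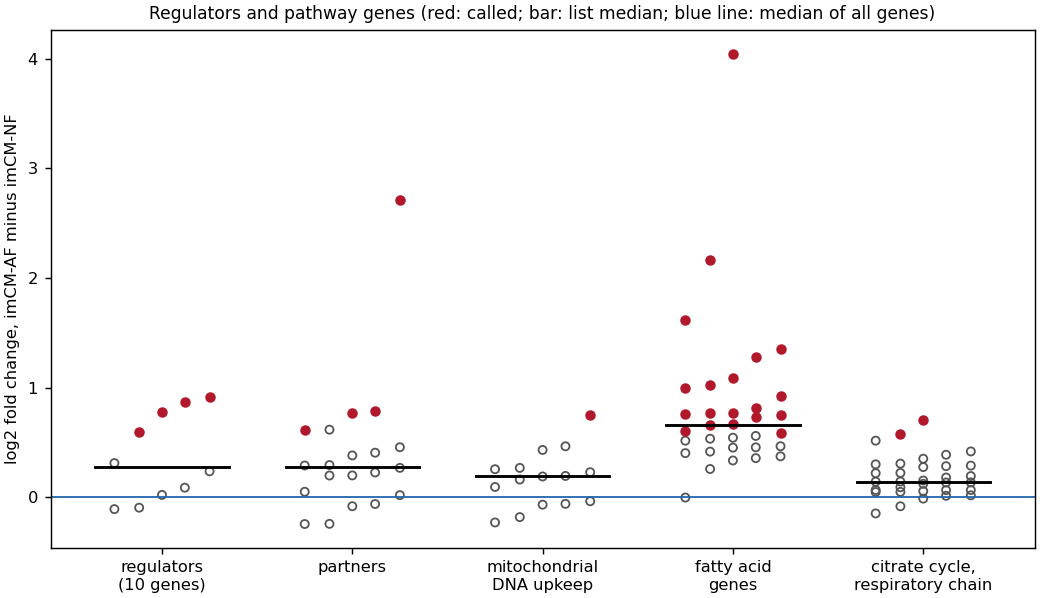
Log2 fold changes of imCM-AF over imCM-NF for the 10 regulators and the 4 pathway lists, with 1 point per tested gene, called genes filled in red, a black line at each list's median and a blue line at the median of all genes. The fatty acid genes have the highest median (0.66), whereas the medians of the other lists lie between 0.15 and 0.28.

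The single-cell chips gave 2462 wells with a source name, of which 2247 were kept, with a median of 16044.5 to 38627 UMIs per well over the 7 name groups. Each name group is 1 sample, so there is no test, and 95% intervals (exact Poisson for a level, exact binomial for a ratio) cover counting error only. UMIs of a gene often sat in few wells, which makes these intervals too narrow. Over all kept wells Rxra had the most UMIs of the members (2394), followed by Tfam (1941), Nrf1 (1831), Ppargc1a (1353), Ppargc1b (928) and Esrra (800). Ppard (344), Esrrg (212), Ppara (110) and Esrrb (54) were sparse. The 10 empty control wells held 1 member UMI, of Ppargc1b, among 5052 UMIs. Of the well barcodes, 269 occur on both chips.

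By chip, the members fell into those of the cardiomyocyte chip and those of both chips. Ppargc1a was at 36.8 CPM (33.6 to 40.3) in NFNCM wells, 28.8 CPM (26.2 to 31.7) in AFNCM wells and 47.1 CPM in NCM0 wells, against 1.69 CPM in NF, 2.85 in AF, 9.69 in NF0 and 0.953 in AF0 wells. Ppargc1b was at 27.1 CPM in NFNCM, 22.6 in AFNCM and 18.2 in NCM0, against 2.11 in NF, 0.114 in AF, 8.96 in NF0 and 0.238 in AF0. Esrrg was at 7.96 CPM in NFNCM, 3.12 in AFNCM and 4.64 in NCM0, and at 0.411 to 2.95 in the fibroblast chip groups. These 3 genes were highest in wells of the cardiomyocyte chip. For Esrrg, however, the intervals of AFNCM (2.29 to 4.14 CPM) and NF (1.83 to 4.51 CPM) overlapped. Of the 21 Esrrg UMIs in NF, 15 sat in 1 well. Rxra ran from 26.4 to 46.1 CPM, Nrf1 from 20.1 to 32.1 CPM and Tfam from 19.1 to 39.9 CPM over the 7 groups, and none of them was set apart by chip. Ppard ran the other way in part, with its highest level in AF0 wells (10.6 CPM) and its lowest in NCM0 wells (1.89 CPM). Esrra lay between 4.41 CPM (AF0) and 17.9 CPM (NCM0). Ppara (at most 3.14 CPM) and Esrrb (at most 2.06 CPM) were too sparse for an order.

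**Figure D4:**
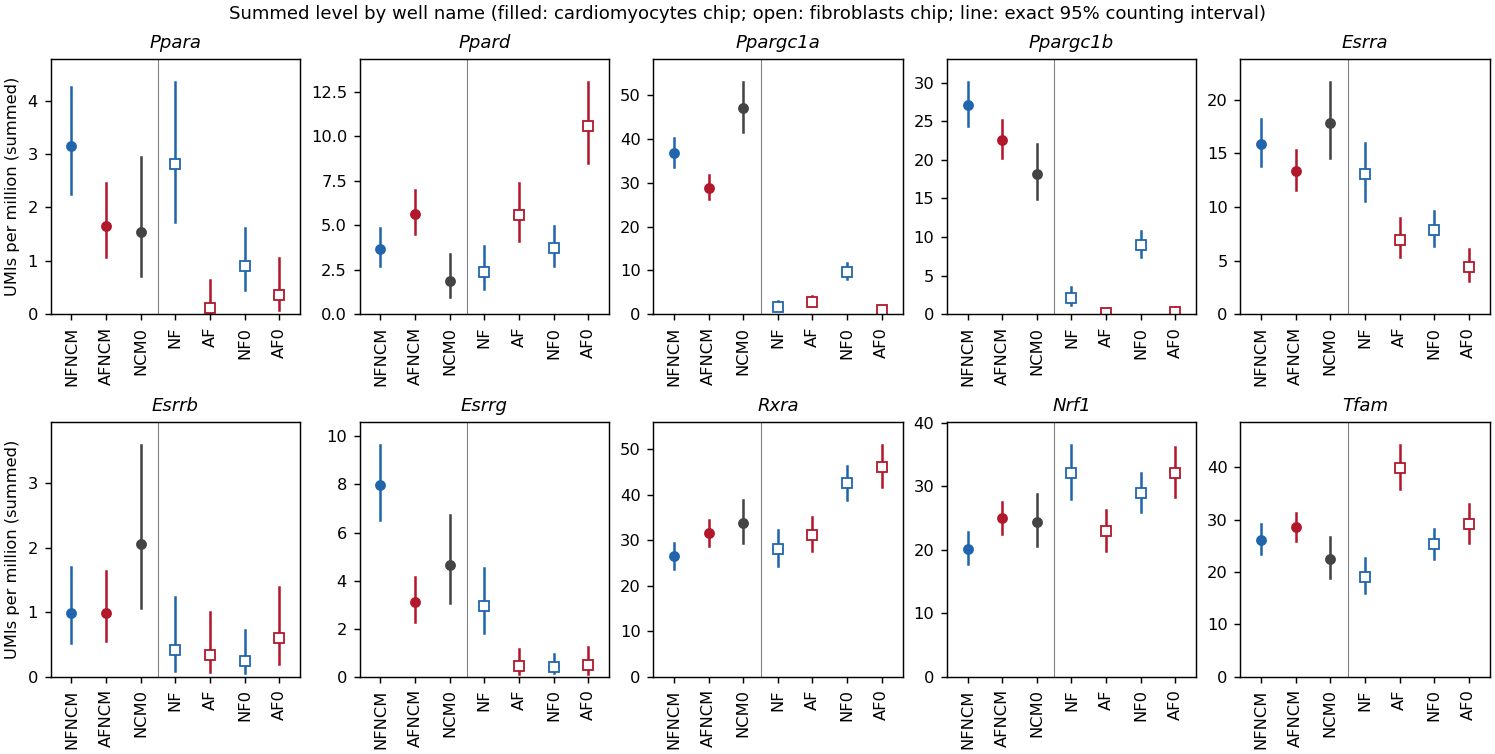
Level of each member in the 7 groups of wells, as CPM of summed UMIs on linear axes from 0 with exact Poisson 95% intervals that cover counting error only. Ppargc1a, Ppargc1b and Esrrg are higher in the 3 groups of the cardiomyocyte chip than in the AF, NF and AF0 groups, whereas Rxra, Nrf1 and Tfam stay within 19.1 to 46.1 CPM throughout. The Esrrg intervals of AFNCM and NF overlap.

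The chips did not hold pure cell types, so wells were also clustered without the members and the pathway genes, and clusters were named from marker genes. This gave 626 cardiomyocyte-like wells, 766 fibroblast-like wells, 119 endothelial-like wells and 38 macrophage-like wells, while 698 wells in 5 clusters stayed unnamed. Cardiomyocyte markers summed to 53397 CPM in cardiomyocyte-like and to 1893 CPM in fibroblast-like wells, whose median UMI counts were similar (26091.5 and 27896.5). What follows is a description, with no test. Ppargc1a was at 51.0 CPM in cardiomyocyte-like and 1.52 CPM in fibroblast-like wells, a ratio of 33.5. It had a UMI in 33.4% of the former and 3.26% of the latter wells, or 15.7% and 0.413% after thinning every well to 5000 UMIs. Esrrg (7.65 and 0.415 CPM, ratio 18.4) and Ppargc1b (33.7 and 2.91 CPM, ratio 11.6) followed. Esrra (21.5 and 7.50 CPM, ratio 2.86) was higher in cardiomyocyte-like wells as well. So were the summed levels of the sparse Esrrb (1.63 and 0.380 CPM) and Ppara (2.70 and 1.11 CPM, ratio 2.44), which rest on few wells. Esrrb had 32 against 11 UMIs, with 11 of the 12 of NCM0_2 in 1 well. Ppara had 53 against 32 UMIs, with 13 of the former in 1 NFNCM1 well, 11 in 1 NFNCM2 well and 18 of the latter in 1 NF2 well.

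The other 4 members were not higher in cardiomyocyte-like wells. Tfam was at 22.9 CPM in cardiomyocyte-like and 30.4 CPM in fibroblast-like wells, Nrf1 at 17.6 and 26.1 CPM, Rxra at 26.9 and 33.6 CPM, and Ppard at 3.72 and 4.57 CPM. Thus 6 members were past 1.5-fold higher and 0 past 1.5-fold lower, against 71.0% of all genes in either direction, 19.6% higher and 51.4% lower. The 4 genes called in bulk are among these 6, Ppara on the few wells given above. Endothelial-like wells had 23.3 CPM of Ppargc1a, from 97 UMIs in 15 wells, and 44.7 CPM of Rxra. Cardiomyocyte markers summed to 7609 CPM in these wells, against 1893 CPM in fibroblast-like wells, and their part in the Ppargc1a value was not tested.

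Between the co-cultures, the single-cell levels of several members were ordered differently from the bulk levels. Over all NFNCM and AFNCM wells, 3 of 10 members were past 1.5-fold, against 33.7% of all genes (24.1% higher and 9.55% lower in AFNCM), so the count is near the background. As a mean of per-well CPM, which weights wells equally, 6 members were past 1.5-fold (1 higher, 5 lower). The 33.7% belongs to summed CPM, and no share of all genes is given for the per-well mean, so the 6 cannot be set against a background. Ppard was higher in AFNCM (5.63 against 3.68 CPM, ratio 1.53, 1.06 to 2.23). Esrrg was lower (3.12 against 7.96 CPM, ratio 0.391, 0.271 to 0.557), and so was Ppara (1.66 against 3.14 CPM, ratio 0.528, 0.308 to 0.889), whose 41 UMIs in NFNCM came from 14 wells with 13 in 1 well. For Ppargc1a the ratio was 0.783 (0.686 to 0.893) and for Ppargc1b 0.834 (0.717 to 0.970). The mix of wells differed, since 51.6% of NFNCM and 35.1% of AFNCM wells were cardiomyocyte-like, and fibroblast markers summed to 1029 CPM in NFNCM and 2604 CPM in AFNCM. The class leaves out the shallow, unnamed cluster 6, which had 8 of 10 cardiomyocyte markers raised and held 117 NFNCM and 25 AFNCM wells. It also leaves out unnamed cluster 2 (median 7722 UMIs, 2 of 10 raised), with 3 NFNCM and 120 AFNCM wells. Unnamed wells made up 29.1% of NFNCM and 33.6% of AFNCM. The sort or separation before loading can set such shares.

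Within cardiomyocyte-like wells (270 NFNCM and 181 AFNCM), the coactivators were at about the same level. Ppargc1a was at 49.9 CPM in NFNCM and 48.9 CPM in AFNCM (ratio 0.981, 0.846 to 1.14). Ppargc1b was at 36.9 and 39.1 CPM (ratio 1.06, 0.896 to 1.25). Esrra (22.1 and 19.9 CPM, ratio 0.899), Rxra (25.4 and 25.8 CPM, ratio 1.01) and Nrf1 (16.3 and 17.0 CPM, ratio 1.04) were also close. Esrrg remained lower in AFNCM (5.04 against 12.2 CPM, ratio 0.413, 0.273 to 0.612), from 36 UMIs in 16 wells against 96 UMIs in 38 wells. The summed level of Ppara was lower as well (1.82 against 4.45 CPM, ratio 0.409, 0.199 to 0.793), from 13 against 35 UMIs. However, 13 of the 21 UMIs of NFNCM1 and all 11 of NFNCM2 sat in 1 well each. After thinning, the share of wells with a Ppara UMI overlapped between the groups. It was 2.74%, 1.05% and 1.12% in NFNCM1 to NFNCM3 and 4.26%, 1.43% and 0% in AFNCM1 to AFNCM3. Tfam had a ratio of 0.709 (0.570 to 0.880). In all, 0 members were past 1.5-fold higher and 2 lower, against 37.0% of all genes in either direction, 24.6% higher and 12.3% lower.

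Side by side, Esrrg was 1.72-fold higher in imCM-AF in bulk and at 0.413 of the NFNCM level in AFNCM cardiomyocyte-like wells, and Ppara was 1.51-fold higher in bulk and at 0.409 in these wells. The Ppara value in these wells rests on few UMIs, most of those of NFNCM1 and NFNCM2 in 1 well each. The assays differ in cells, chemistry and unit, the single-cell side has 1 sample per group, and the difference was not tested. Most NFNCM cardiomyocyte-like wells were in cluster 1 (242 of 270), whereas most AFNCM ones were in cluster 7 (133 of 181), which is led by the epithelial and interferon-response genes Sprr2a1, Iigp1 and Igtp, so the class was not made of the same wells in both groups. Median UMI counts per cardiomyocyte-like well were 25863 in NFNCM and 34503 in AFNCM. The fatty acid genes gave 9 past 1.5-fold higher and 1 lower of 29 with enough UMIs, with a median log2 ratio of 0.27 against 0.13 for all genes. The citrate cycle and respiratory chain genes gave 0 higher and 2 lower of 33, with a median log2 ratio of -0.23, whereas their bulk median was 0.15.

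The numbered sources within each name showed how far levels spread. In cardiomyocyte-like wells Esrrg was at 8.99, 8.08 and 18.7 CPM in NFNCM1 to NFNCM3 and at 4.72, 3.92 and 6.34 CPM in AFNCM1 to AFNCM3, so that all AFNCM sources lay below all NFNCM sources. Ppargc1a was at 37.5, 49.5 and 58.8 CPM in NFNCM and at 61.4, 50.9 and 38.1 CPM in AFNCM, fully interleaved. Ppargc1b was at 51.5, 27.6 and 36.3 CPM in NFNCM and at 25.2, 41.1 and 47.0 CPM in AFNCM, also interleaved. Ppara was at 10.5, 3.70 and 1.04 CPM in NFNCM and at 5.25, 0.392 and 0.746 CPM in AFNCM, with overlap. Tfam was at 24, 31.0 and 27.3 CPM in NFNCM and at 21, 15.3 and 23.1 CPM in AFNCM. These levels did not overlap, but the intervals of NFNCM1 (17.7 to 31.8 CPM) and AFNCM3 (17.7 to 29.7 CPM) did. Since all sources were on 1 chip, they are not treated as replicates. No share of all genes separated by source is given, so a lack of overlap here and below cannot be set against a background.

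**Figure D5:**
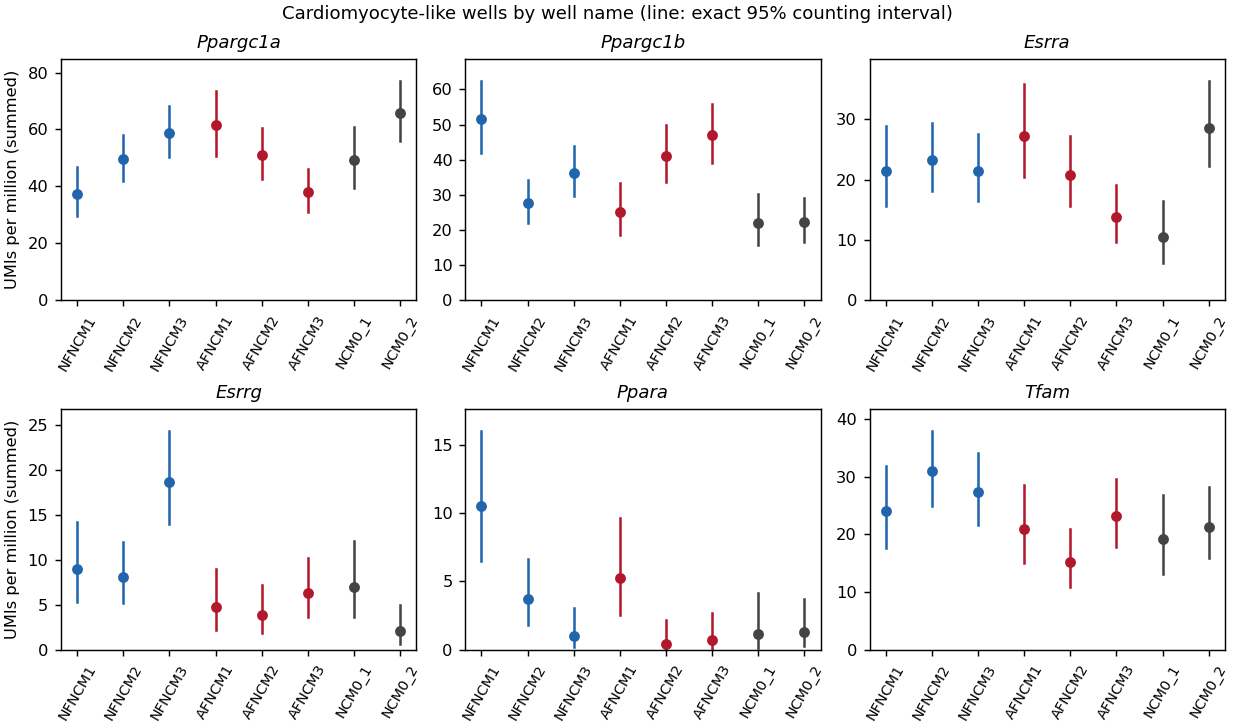
Level of 6 members in cardiomyocyte-like wells by numbered source (NFNCM, AFNCM and NCM0), as CPM of summed UMIs with exact Poisson 95% intervals. The AFNCM sources of Esrrg (3.92 to 6.34 CPM) lie below its NFNCM sources (8.08 to 18.7 CPM), whereas the sources of Ppargc1a and Ppargc1b are interleaved.

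Cardiomyocyte-like wells named NCM0 (160 wells, median 18460 UMIs) had a lower summed level of Ppargc1b than those of either co-culture. Ppargc1b was at 22.1 CPM in NCM0 and at 36.9 and 39.1 CPM in NFNCM and AFNCM, ratios of 1.67 (1.31 to 2.14) and 1.77 (1.39 to 2.27). Both NCM0 sources (22.0 and 22.2 CPM) lay below each of the 6 co-culture sources, the lowest of which was 25.2 CPM (AFNCM1, interval 18.6 to 33.4). In AFNCM2 and AFNCM3, however, 31 of 105 and 53 of 126 UMIs sat in 1 well. After thinning, the share of wells with a Ppargc1b UMI did not set NCM0 apart. It was 10.9% and 9.41% in the NCM0 sources, 7.37% to 18.0% in the NFNCM sources and 8.57% to 12.7% in the AFNCM sources. Ppard was at 1.72 CPM in NCM0, from 7 UMIs, against 3.94 and 4.90 CPM, but its sources overlapped. They were at 1.74 and 1.71 CPM in NCM0, at 0.50, 9.09 and 1.04 CPM in NFNCM1 to NFNCM3, where 18 of the 27 UMIs of NFNCM2 sat in 1 well, and at 3.15, 6.27 and 4.85 CPM in AFNCM1 to AFNCM3. Ppargc1a was slightly lower in the co-cultures than in NCM0 (58.8 CPM), with ratios of 0.848 in NFNCM and 0.832 in AFNCM. Esrrg was 2.92 times the NCM0 level in NFNCM (1.73 to 5.22) and 1.21 times in AFNCM (0.660 to 2.29). Of all genes, 39.2% were past 1.5-fold in NFNCM against NCM0 and 40.5% in AFNCM against NCM0, and since both comparisons share the NCM0 wells they are not independent.

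On the fibroblast chip, the named groups differed in the cells they held. Fibroblast-like wells made up 70.7% of NF, 74.4% of AF and 73.5% of NF0 wells but 0.588% of AF0 wells. Of the 170 AF0 wells, 166 were in cluster 16, which no other group entered, which stayed unnamed and which was led by Upk1b and Asb5. Epicardial markers, of which Upk1b is 1, summed to 343.6 CPM in AF0 and to 33.9 CPM in NF0 wells. Cardiomyocyte markers summed to 3504 CPM in NF and 4928 CPM in NF0 wells, against 609 CPM in AF and 248 CPM in AF0 wells. AF0 against NF0 is therefore not a comparison of 1 cell type, and the part of these markers in the values that follow was not tested.

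Ppard was higher in AF than in NF wells (5.58 against 2.39 CPM, ratio 2.34, 1.32 to 4.33) and in AF0 than in NF0 wells (10.6 against 3.70 CPM, ratio 2.87, 1.98 to 4.20). By numbered source, over all wells, Ppard was at 6.90 and 4.11 CPM in AF against 1.62 and 3.23 CPM in NF. It was at 16.4 and 7.07 CPM in AF0 against 2.18 and 4.61 CPM in NF0. The levels did not overlap in either pair, but the intervals of AF2 and NF2 did, as did those of AF0_2 and NF0_2. In fibroblast-like wells alone the sources of Ppard overlapped, at 8.17 and 3.03 CPM in AF1 and AF2 and at 1.46 and 4.02 CPM in NF1 and NF2. Esrra was lower in AF than in NF wells (6.95 against 13.1 CPM, ratio 0.532, 0.378 to 0.742), and its sources were at 8.62 and 5.08 CPM in AF and at 16.2 and 9.69 CPM in NF, where 30 of the 93 UMIs sat in 1 well. In fibroblast-like wells alone Esrra was at 5.17 CPM in AF and 14.4 CPM in NF. There, 30 of the 46 UMIs of NF1 and 18 of the 33 of NF2 sat in 1 well each. Over all wells, 6.64% of NF and 6.39% of AF wells had an Esrra UMI, or 3.59% and 2.40% after thinning. In AF0 against NF0 the ratio of Esrra was 0.559 (0.372 to 0.825), but NF0_1 (4.15 CPM) lay below both AF0 sources (4.43 and 4.4 CPM) and only NF0_2 (10.1 CPM) lay above them. Tfam was higher in AF than in NF wells (39.9 against 19.1 CPM, ratio 2.09, 1.71 to 2.56), from 350 UMIs in 59 wells against 136 UMIs in 47 wells. By numbered source, Tfam was at 28.7 and 52.4 CPM in AF1 and AF2 and at 20.8 and 17.3 CPM in NF1 and NF2. In AF0 against NF0 the ratio of Tfam was 1.15 (0.967 to 1.36). Of all genes, 46.1% were past 1.5-fold between AF and NF wells and 48.8% between AF0 and NF0 wells.

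Ppargc1a and Ppargc1b in NF0 wells (9.69 and 8.96 CPM) stood above the other groups of that chip. The 118 UMIs of Ppargc1a came from 14 of 306 wells, with 36 in 1 well, and the 109 UMIs of Ppargc1b came from 12 wells. The sum of cardiomyocyte markers was also highest in NF0 on this chip. In the fibroblast-like wells of NF0 Ppargc1a was at 0.726 CPM, from 7 UMIs in 225 wells.

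For the members with the most UMIs, Rxra and Tfam, the genes most like them were sought by Pearson correlation of log2(CPM + 1) over the 16 numbered sources among 6089 genes. For Rxra these were Ahcyl1 (r = 0.850), Ttc14 (r = 0.811) and Ilvbl (r = 0.786). For Tfam they were Slc16a3 (r = 0.776), Klf7 (r = 0.774) and Fnbp4 (r = 0.766). The 16 points share 2 chips and differ in depth, so these values are a description.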

How the data were processed

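RNA of 2 imCM-NF and 2 imCM-AF bulk libraries (TruSeq V2, which does not mark strand) was deposited by the authors as raw counts per Entrez gene, from reads aligned to mm10 with Subread and assigned by featureCounts; the strand setting is not given in the sources used here. The submitters' processing notes name STAR 2.5.2b and Subread 1.4.6-p1. The authors deposited UMI counts per Ensembl gene and well for 2 ICELL8 chips, with a report of the source name of each well. A workbook with the authors' own fold changes was not used. Members and lists were chosen with earlier results of these data known.

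Counts were tested in edgeR 4.0.16 (R 4.3.3; glmQLFit, glmQLFTest, TMM) on the 4 libraries with group as the only term, after a filter of CPM over 1 in at least 2 libraries. Calls needed a Benjamini-Hochberg adjusted p under 0.05 plus a log2 fold change past 0.58 in either direction. The study used limma, and counts called for edgeR here. Entrez rows without a symbol (1904 of 27179, 3.52% of counts) stayed in. RPKM used the union of GENCODE exons on GRCm38.p6. Library totals were 9278909 to 12088577 counts. The 2 libraries of each group differed by more than counting noise. The correlation between the deviations of same-numbered libraries was -0.12, so numbers were not taken to pair the samples. Alternatives were DESeq2 1.42.0, total-count scaling, other filters and thresholds, each library left out, and a replicate block. The scripts were tested on simulated data.

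The well filter required 500 or more genes, alignment of over 50% of read pairs, and UMI totals no farther than 2 SD from the mean. The files held 1648 wells named NFNCM, AFNCM, NF or AF, and 1513 were kept. UMIs were summed per name after leaving out 34 mitochondrial genes, and a ratio was called past 1.5-fold at an absolute log2 ratio over 0.58 with at least 20 UMIs. Shares were also taken after thinning to 5000 UMIs, which left out 296 shallower wells. Wells were clustered in scanpy 1.11.5 (2000 variable genes without members and lists, 10 components, 30 neighbors, Leiden resolution 1), and the clusters were named from fixed markers in 2 steps, of which the second was chosen after seeing the data. Cardiomyocyte-like clusters had most of the 10 cardiomyocyte markers raised. A cluster with a median UMI count far below its chip's and no marker among its top genes stayed unnamed. Cluster 6 (209 wells, median 4060 UMIs), with 8 of the 10 raised, stayed unnamed by this rule. With every kept well placed as cardiomyocyte-like or fibroblast-like by its larger share of marker UMIs, 1089 were cardiomyocyte-like, against 626 by cluster, with 621 in both. No doublet caller was run. Intervals and floors cover counting error only.

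The text names the 10 members, up to 3 called genes per list and direction with the largest change and no overlap of libraries, and the 3 genes most like each of the 2 members with the most UMIs.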

Additional observations from a re-analysis of the deposited data

How the results depend on the processing

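The count of genes called was 1564. It was 3789 with the adjusted p alone, 565 with a log2 fold change over 1, and 879 to 1929 with 1 library left out. The fit with a replicate block called 1430 genes and the same 4 members, with Ppara at an adjusted p of 0.0275. Exchanging the numbers of imCM-AF in the block, an alternative chosen after seeing the data, gave 1668 genes and 4 members. Total-count scaling called 1580 genes, 1005 higher and 575 lower, against 864 and 700. The count of members called was 4; it was 0 with a log2 fold change over 1 and 2 to 4 with 1 library left out, the low value coming when replicate 2 of either group was left out. Partners called were 4 (9 with the adjusted p alone, 1 over a log2 fold change of 1, 2 to 4 with 1 library left out). Genes of mitochondrial DNA upkeep called were 1 (0 in DESeq2, 2 with the adjusted p alone, 0 over a log2 fold change of 1, 0 to 1 with 1 library left out). Fatty acid genes called were 19 (31 with the adjusted p alone, 7 over a log2 fold change of 1, 15 to 24 with 1 library left out). Citrate cycle and respiratory chain genes called were 2 (1 without a filter on low counts, 7 with the adjusted p alone, 0 over a log2 fold change of 1, 0 to 3 with 1 library left out). The log2 fold change of Rxra ran from -0.083 (without imCM-AF replicate 1) to 0.14 with 1 library left out, and was -0.054 without imCM-NF replicate 1, against 0.02. In single wells, 6 members were past 1.5-fold between AFNCM and NFNCM as a mean of per-well CPM (1 higher, 5 lower), against 3 as summed CPM. No share of all genes is given for the per-well mean. An RPKM filter left Esrrb untested. The causes were not tested. Of 93 counts under alternatives, 70 stayed within 1.5 times the value reported. With 2 libraries a group the intervals of the log2 fold changes set what could be told apart, and the single-cell groups have 1 sample each.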
